A study of Mus musculus with 2 samples.

Results

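The 10 genes described here encode SOX transcription factors: Sox2, Sox4, Sox5, Sox6, Sox9, Sox10, Sox13, Sox15, Sox18 and Sox21. They were chosen by gene symbol, and all 10 were found among the 32285 genes of the matrices, 19 of which have a Sox symbol. They were followed in single cells from mouse dorsal skin on postnatal day 3. One library had the genotype label Wildtype and is called the control library. The other had the genotype label miR-200b induced and is called the induced library, and both carried the treatment label Dox. Epidermal and dermal cell suspensions were mixed 30 to 70 before loading on the 10x platform. Each group was 1 library, so no difference has a replicate check, no test between the libraries was possible, and every interval below covers counting error only. The number of animals per library, their strain and the construct that carries the microRNA are not given in the labels.

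SOX proteins bind DNA through a shared high-mobility-group box and fall into groups that tend to mark particular lineages. SOX9 is needed for the outer root sheath and the stem cells of the hair follicle, SOX10 for pigment cells and Schwann cells, SOX18 for vessels, and SOX2 is made in dermal papillae and Merkel cells of skin. SOX5, SOX6 and SOX13 lack a transactivation domain of their own and act beside other factors. MicroRNA-200b is a microRNA of epithelial cells that represses RNAs carrying matches to its seed, the bases near its 5′ end.

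The series title names SOX9 and the microRNA-200 family, so the mature microRNAs and the seed matches in the 3′ untranslated regions (UTRs) of the 10 genes are shown first. Mature sequences are from RefSeq (GRCm38.p6), with bases 2 to 8 in capitals.
mmu-miR-200b-3p: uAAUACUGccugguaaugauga
mmu-miR-200a-3p: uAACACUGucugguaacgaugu
MicroRNA-200b, microRNA-200c and microRNA-429 share the first seed, and microRNA-200a and microRNA-141 share the second. The match to the first seed is CAGTATT, searched on the transcript strand only, and it was found in the annotated 3′ UTRs of 3 of the 10 genes.
Sox2, chr3:34651830-34651836, plus strand: caacttttgtaCAGTATTtatcgagataaa
Sox5, chr6:143829021-143829027, minus strand: ccaggttgacaCAGTATTtaattgtgcagt
Sox5, chr6:143828931-143828937, minus strand: cccactaaaggCAGTATTtattcagctccc
Sox5, chr6:143828475-143828481, minus strand: cttccccctttCAGTATTactgccgtgcaa
Sox6, chr7:115471245-115471251, minus strand: atcttattggaCAGTATTggcatgagacaa
Positions are on GRCm38 and capitals mark the match. The Sox2 match lay at base 455 of a 3′ UTR of 1086 bases, and the Sox6 match at base 5667 of 6046. The 3 Sox5 matches lay at bases 4237, 4327 and 4783 of 4839, and the last is followed by an A. The 3′ UTR of Sox5 also held 1 match to the microRNA-200a seed, CAGTGTT. Sox4, Sox9, Sox10, Sox13, Sox15, Sox18 and Sox21 held no match to either seed in 3′ UTRs of 106 to 2780 bases. Of 20908 genes with an annotated 3′ UTR, 13.9% held CAGTATT and 3765 genes held CAGTGTT, over UTRs with a median of 1090 bases, which the UTRs of Sox5 and Sox6 exceed, as do those of Sox4, Sox9, Sox13 and Sox21 without a match. A match is a description of the sequence and no evidence of repression.

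The filters left 4816 cells of the control and 4890 of the induced library, at a median depth of 14612.5 and 17918.5 unique molecular identifiers (UMIs). Of the barcode sequences, 74 occurred in both libraries, 10 of them among barcodes that passed the filters. Gm13648, the annotated transcript that spans the Mir200b locus, stood at 2.20 and 528 CPM (a gene's UMIs summed over the cells, per 1000000 UMIs) in control and induced epithelial cells, which checks the labels. Cells were clustered without Sox genes, and 15 classes were rebuilt from markers, so "-like" is meant with each class name. The libraries separated in the epithelium: 1 library supplied 95% or more of the cells in 26 of 35 epithelial clusters, and in 0 of the 10 other clusters. No name could be given to 11.3% of the control cells and 31.8% of the induced cells. Each class with 10 or more cells had at least 3 of its markers raised, and the defining markers at 0 were at most 2 of a list.

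Summed over both libraries, the 10 genes peaked in 7 different classes, and each was compared with itself across classes, not with the others. Over both libraries, the highest class was the dermal papilla for Sox2 (147 CPM) and Sox18 (381 CPM), and melanocytes for Sox6 (136 CPM) and Sox10 (307 CPM). It was Schwann cells for Sox5 (79.1 CPM), endothelium for Sox13 (36.3 CPM), basal epidermis for Sox15 (28.1 CPM) and the outer root sheath for Sox9 (678 CPM). For Sox4 (571 CPM) and Sox21 (202 CPM) it was the class of inner root sheath and hair shaft. The libraries differed in this for 3 genes. Sox4 was highest in inner root sheath and hair shaft in the control (724 CPM) and in Schwann cells in the induced library (607 CPM). Sox13 was highest in inner root sheath and hair shaft in the control (34.9 CPM) and in endothelium in the induced library. Sox18 was highest in the dermal papilla in the control and in endothelium in the induced library. Other classes came close in the induced library for Sox13 (endothelium 43.1, outer root sheath 32.0 CPM) and Sox5 (Schwann cells 108, pericytes and smooth muscle 85.5 CPM). Sox10 was at 230 and 283 CPM in Schwann cells, near its melanocyte levels of 236 and 344 CPM. The genes differed in how much they were counted, from 161 UMIs for Sox2 and 764 for Sox5 to 48364 for Sox9 and 53345 for Sox4. Sox4 was the broadest: it was the only one of the 10 with over 50 CPM in each non-epithelial class except macrophages.

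**Figure D1:**
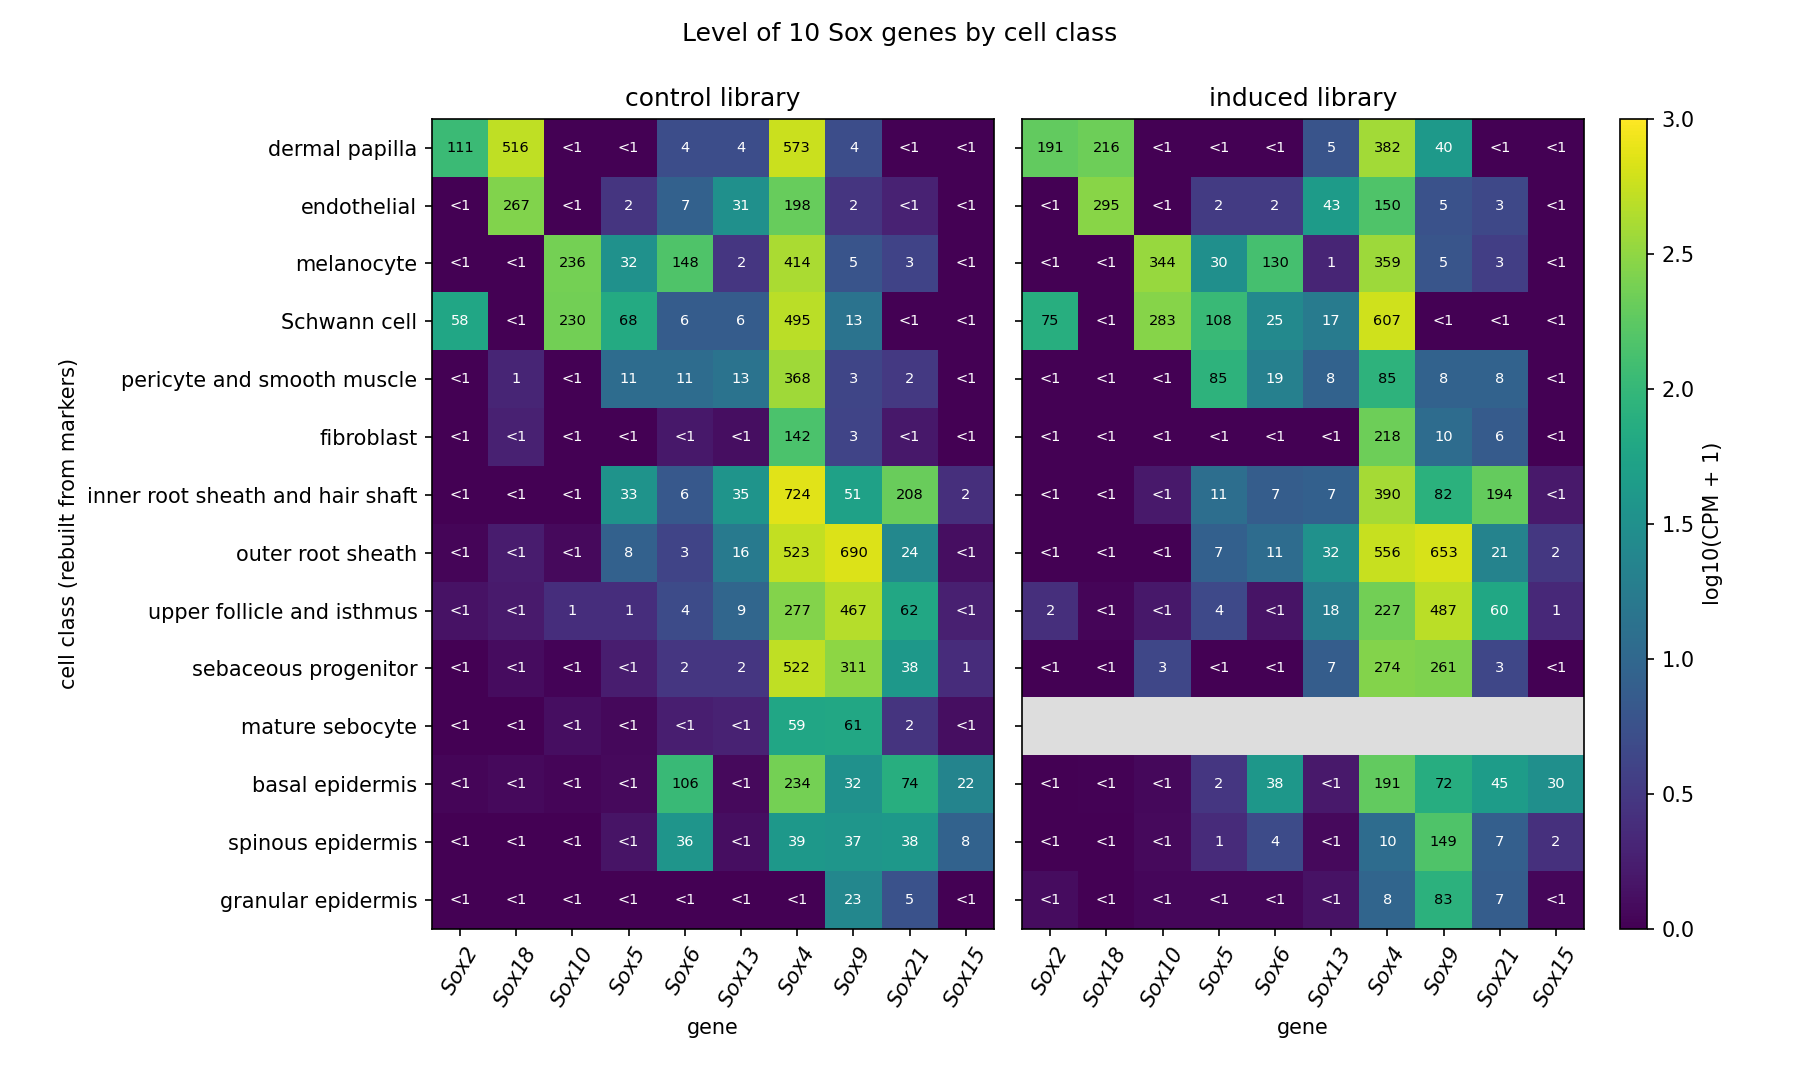
Level of each Sox gene in CPM, printed in each cell and coloured as log10(CPM + 1), by rebuilt cell class (rows) for the control library (left) and the induced library (right); grey marks a class with under 10 cells. Read down a column, Sox10 is high in melanocytes and Schwann cells only, and Sox18 in dermal papilla and endothelium, whereas Sox4 spans nearly all rows.

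In the dermal papilla, the mesenchymal signalling centre at the base of the follicle, Sox18 was lower in the induced library and Sox2 was not. Sox18 (ENSMUSG00000046470, chr2:181669836-181671640, minus strand), a SOXF gene known from vessels and from dermal papillae, stood at 516 CPM in 39 control cells (interval 430 to 614, 126 UMIs) and at 216 CPM in 82 induced cells (157 to 291, 43 UMIs). The intervals did not overlap, and the log2 ratio of induced over control was -1.25 (-1.79 to -0.74). With each cell thinned to 2000 UMIs, 69.2% of 39 control and 17.1% of 35 induced cells had a Sox18 UMI, and unthinned 82.1% and 25.6% had one. The induced papilla cells were shallower, with a median of 1753.5 UMIs compared with 6175. With the stricter cell filter, which left 33 cells in each library, the log2 ratio was -0.87 (-1.45 to -0.32). It was -0.97 with doublets kept and -1.02 with cells assigned one by one, and in none of these 3 settings did Sox18 pass the fold defined next.

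A gene was counted as past the fold when CPM plus 5 differed at least 2-fold with intervals that did not overlap, among genes with at least 100 UMIs in the class. In the dermal papilla 16.1% of 616 such genes were past the fold in the lower direction and 8.93% in the higher. Sox18 was 1 of the 2 Sox genes that could be counted there, against a background in which many genes were lower. The other was Sox4, at 573 and 382 CPM. All 14 dermal papilla markers were detected in both libraries, summing to 8329 and 9330 CPM. Fibroblast markers summed to 6524 and 3244 CPM in these cells and basal keratinocyte markers to 778 and 1579 CPM, and Sox9 was at 4.09 and 40.2 CPM (1 and 8 UMIs). The part of these in the Sox18 difference was not tested.

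Sox2 (ENSMUSG00000074637, chr3:34650405-34652461, plus strand) stood at 111 CPM in control papilla cells (72.8 to 161, 27 UMIs) and at 191 CPM in induced ones (135 to 262, 38 UMIs). These intervals overlapped, and the log2 ratio was 0.79 (0.04 to 1.56). Schwann cells came second, at 58.2 CPM (34.5 to 92.0) and 74.8 CPM (34.2 to 142), and their intervals overlapped those of the papilla in both libraries. Every other class was at most 1.54 CPM. Sox2 was found in few papilla cells: 12.8% of control and 14.6% of induced cells without thinning, and 10.3% and 22.9% at 2000 UMIs. Of the control papilla cells 5 had Sox2, 32 had Sox18 and 1 had both, and of the induced ones 12 had Sox2, 21 had Sox18 and 3 had both. Sox2 lies inside Sox2ot on the same strand, so reads common to both cannot be told apart in these counts.

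A few induced epithelial cells also held Sox2. An unnamed epithelial cluster of 21 control and 217 induced cells, with low depth (medians of 1344 and 1065 UMIs), had 31 Sox2 UMIs in the induced library and 0 in the control. Of these UMIs, 30 came from 3 induced cells that carried at least 3 markers of Merkel cells, the touch receptor cells of the epidermis, at 1111 CPM (749.9 to 1587). No control cell of the cluster met that marker count, so the libraries cannot be compared for it. Leading genes of the cluster also included the mast cell markers Cma1, Tpsb2 and Cpa3. Its 2 induced cells with at least 2 mast cell markers held 0 Sox2 UMIs.

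In endothelium, where SOX18 is known to act in vessel and lymphatic development, Sox18 stood at 267 CPM in 61 control cells (237 to 300) and 295 CPM in 68 induced cells (260 to 333). The log2 ratio was 0.14 (-0.11 to 0.39), and its interval spans 0. Endothelial Sox18 was below dermal papilla Sox18 in the control library with intervals apart, and above it in the induced library, where the intervals overlapped. Sox13, a SOXD gene, had a control level of 30.9 CPM (21.3 to 43.4) and an induced level of 43.1 CPM (30.3 to 59.4) in the same cells, and 19 of 21 and 19 of 19 of the endothelial cells with a Sox13 UMI also had one of Sox18. Over all endothelial cells Sox18 was read in 52 of 61 and 50 of 68. Neither Sox18 nor Sox4, the 2 Sox genes counted there, passed the fold, compared with 4.68% of 3267 genes higher and 7.41% lower. Sox4 was at 198 and 150 CPM, a log2 ratio of -0.40, which became -1.03 and passed the fold when doublets were kept. The other SOXF genes were close by: Sox17 at 316 and 292 CPM and Sox7 at 104 and 128 CPM. Among genes described as SOX18 targets, Cldn5, a tight junction gene, was at 663 and 1299 CPM. Prox1, a lymphatic marker, had 0 and 35 UMIs, and Vcam1 had 8 and 2. With 61 and 68 cells, the make-up of vessel types in the class may differ between the libraries, and this was not tested.

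Sox18 was also present at a low level in a dermal cluster led by Coch, Eln and Mfap4, which was unnamed and held 188 control and 144 induced cells. Its control level there was 25.8 CPM (18.6 to 34.7) and its induced level 76.6 CPM (59.7 to 96.8), a log2 ratio of 1.57, opposite in sign to the papilla. Dermal papilla markers summed to 1356 and 1372 CPM in this cluster and endothelial markers to 13.2 and 24.1 CPM. In the named fibroblast cluster Sox18 had 3 and 0 UMIs. Fibroblasts had 1 Sox gene that could be counted, Sox4, which did not pass the fold, compared with 3.26% of 5183 genes higher and 4.36% lower.

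**Figure D2:**
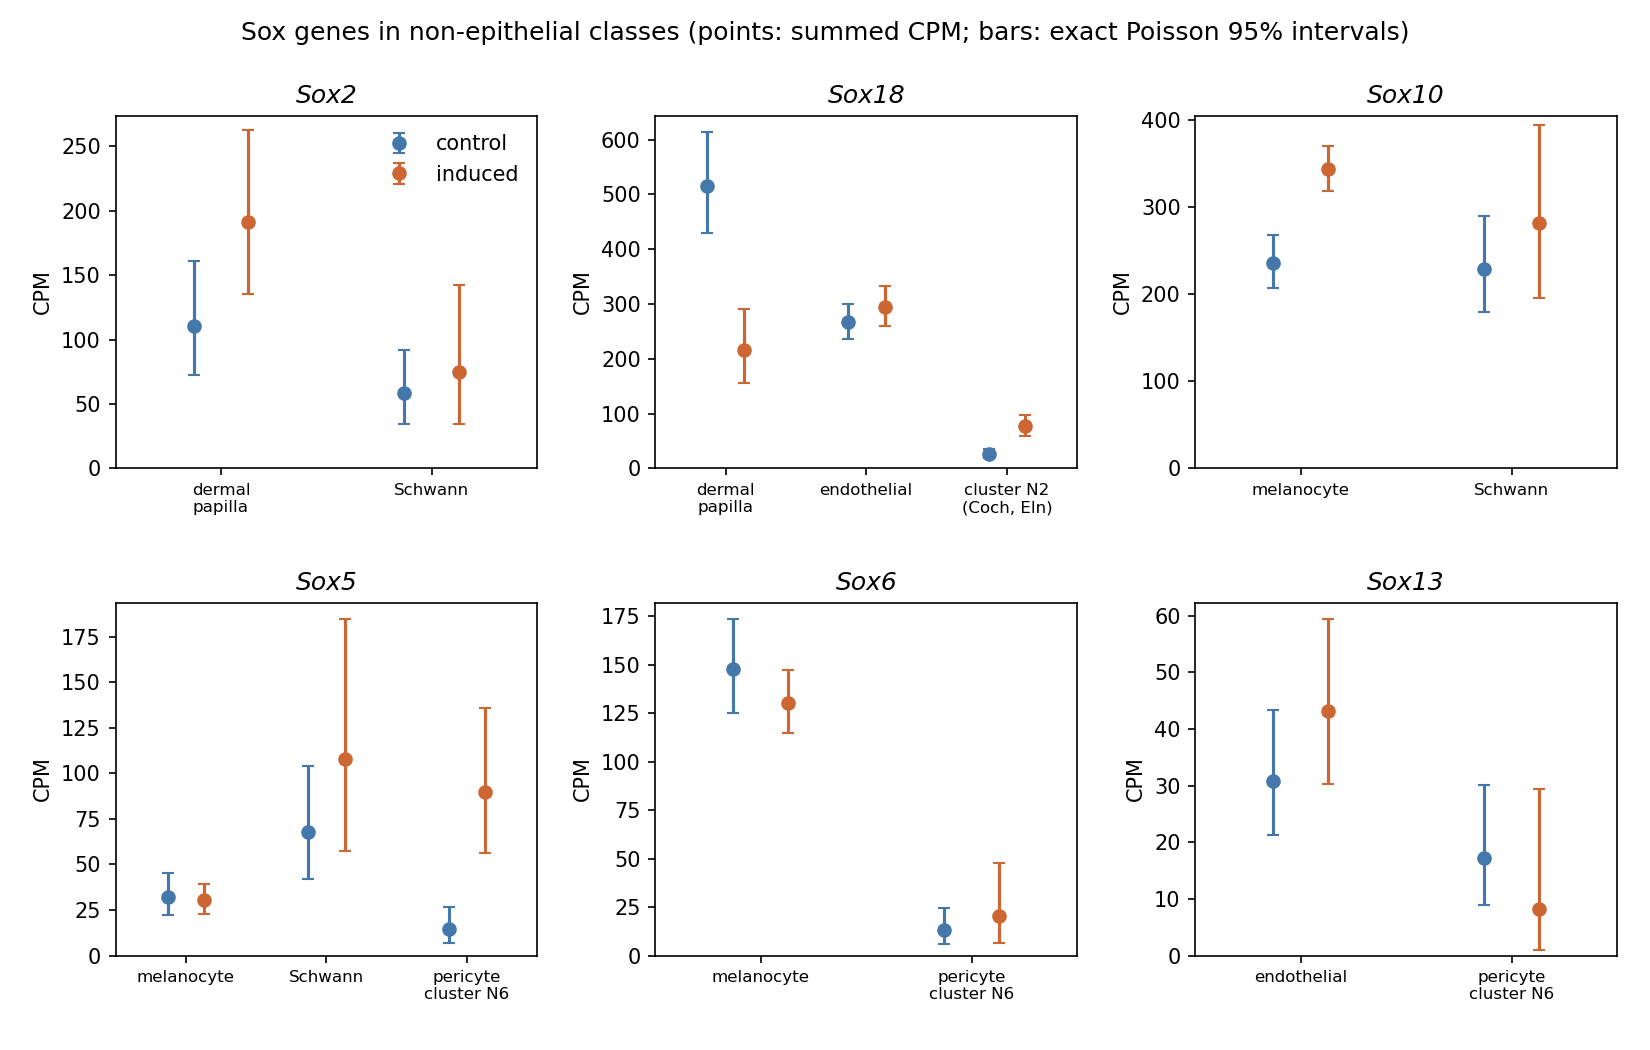
Level in CPM (linear axis from 0) of 6 Sox genes in non-epithelial classes or clusters of the control (blue) and induced (orange) library; points are summed levels, bars are exact Poisson 95% intervals. Sox18 in the dermal papilla goes from 516 to 216 CPM while endothelial Sox18 stays between 267 and 295 CPM, and Sox10 is higher in induced melanocytes.

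The neural crest lineages shared Sox10 and Sox5 and differed in Sox2 and Sox6. Sox10 (ENSMUSG00000033006, chr15:79154908-79165240, minus strand), which drives melanocyte and Schwann cell genes, stood at 236 CPM in 80 control melanocytes (207 to 268) and at 344 CPM in 238 induced ones (318 to 371). The intervals were apart, with a log2 ratio of 0.54 (0.33 to 0.76), short of 2-fold. Schwann cells, with 30 and 16 cells, were at 230 CPM (179 to 290) and 283 CPM (196 to 395), which overlapped. At 2000 UMIs 42.5% of control and 48.5% of induced melanocytes had a Sox10 UMI (unthinned 93.8% and 85.7%), compared with 0 of 333 control and 0 of 72 induced fibroblasts, where a limit of 3 cells of the total comes to 0.901% and 4.17%. Median depths were 10158 and 7522.5 UMIs in melanocytes and 10166.5 and 5139 in fibroblasts.

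Beside Sox10, genes described as its targets stood as follows in melanocytes. Mitf, the master factor of pigment cells, was at 403 and 798 CPM, Dct, a melanin enzyme, at 6070 and 9912 CPM, and Tyr, the rate-limiting enzyme of melanin synthesis, at 454 and 692 CPM. All 3 had intervals of the log2 ratio above 0, at 0.99 (0.83 to 1.15), 0.71 (0.67 to 0.75) and 0.61 (0.45 to 0.77). Erbb3 (133 and 132 CPM) and Pax3, a partner of SOX10 (674 and 704 CPM), had intervals that spanned 0. All 12 melanocyte markers, which include Dct, Tyr and Mitf, were detected and summed to 16472 and 30548 CPM, a larger share of UMIs in the induced library. The part of this in the Sox10 value was not tested.

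Sox6 (ENSMUSG00000051910, chr7:115470872-116038796, minus strand) stood at 148 CPM (125 to 174) in control and 130 CPM (115 to 147) in induced melanocytes, a log2 ratio of -0.18 (-0.48 to 0.12). Sox5 (ENSMUSG00000041540, chr6:143828425-144781977, minus strand), a SOXD gene known to temper SOX10 in pigment cells, was at 32.2 and 30.2 CPM, a log2 ratio of -0.09 (-0.73 to 0.58). Neither differed beyond counting error. Of the Sox6, Sox10 and Sox4 values counted in melanocytes, 0 of 3 passed the fold, compared with 2.08% of 4275 genes higher and 1.4% lower. Unthinned, 54 of 57 control and 120 of 133 induced melanocytes with Sox6 also had Sox10, compared with 75 of all 80 and 204 of all 238. Gm13648 was at 7.17 CPM in induced melanocytes and 725 CPM in induced basal epidermis.

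Sox5 was higher in Schwann cells, at 67.9 CPM (42.0 to 104) and 108 CPM (57.5 to 185), with 21 and 13 UMIs. In 1 pericyte and smooth muscle cluster, led by Rgs5 and Acta2, it stood at 14.4 CPM in 52 control cells (6.89 to 26.4, 10 UMIs) and at 89.7 CPM in 46 induced cells (56.2 to 136, 22 UMIs). The intervals were apart and the log2 ratio was 2.64, on few UMIs. Melanocyte markers summed to 12.9 and 36.7 CPM and Schwann cell markers to 41.6 and 16.3 CPM in this cluster, with 8 to 10 of the 12 at 0. Fibroblast markers summed to 4774 and 2262 CPM there, and median depth was 12421 and 5281.5 UMIs, and the part of these in the Sox5 difference was not tested. For the whole pericyte and smooth muscle class the log2 ratio was 3.01, and the stricter filter gave 1.79 (0.61 to 3.09). Sox5 overlaps Gm44068 and Sox5it on its own strand.

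In the hair follicle epithelium Sox9 and Sox4 were high in the outer root sheath, and Sox21 in the forming hair shaft. Sox9 (ENSMUSG00000000567, chr11:112782224-112787760, plus strand) stood at 690 CPM in 1378 control cells of the outer root sheath and at 653 CPM in 570 induced ones, a log2 ratio of -0.08 (-0.12 to -0.03). The ratio was -0.58 with the other clustering resolution and between -0.17 and -0.29 under the other ways of choosing cells. Within the class, clusters ranged from 423 to 1145 CPM in the control and from 553 to 1410 CPM in the induced library, so they overlapped. Summed by class, levels were ordered in both libraries as outer root sheath, upper follicle and isthmus (467 and 487 CPM), then sebaceous progenitors (311 and 261 CPM). The counting intervals of each were apart from the next. Upper follicle clusters ranged from 141 to 918 CPM in the control and from 186 to 975 CPM in the induced library, so they overlapped outer root sheath clusters. Mature sebocytes, the lipid-filled cells of the gland, came to 61.3 CPM (55.4 to 67.7) in 213 control cells and numbered 3 in the induced library. Fibroblasts, as background, had 3.17 and 10.4 CPM of Sox9. At 2000 UMIs 70.0% and 70.3% of outer root sheath cells had a Sox9 UMI.

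Sox4 (ENSMUSG00000076431, chr13:28948919-28953713, minus strand), a SOXC gene of progenitor cells in many tissues, stood at 523 and 556 CPM in the outer root sheath and at 522 CPM in 777 control and 274 CPM in 22 induced sebaceous progenitors, a log2 ratio of -0.93 (-1.26 to -0.62) in the latter class. It was 59.0 CPM in mature sebocytes and 38.9 and 10.4 CPM in spinous epidermis, where cells differentiate. The highest cluster held 38 control cells and was led by Mef2c and Myl9, at 1186 CPM (1054 to 1330). It took the name pericyte and smooth muscle with only 4 of the 11 markers raised. Of the outer root sheath cells with Sox4 at 2000 UMIs, 522 of 744 in the control and 232 of 321 in the induced library also had Sox9, compared with 955 of all 1364 and 397 of all 565 cells.

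A few epithelial clusters that held cells of both libraries allow a comparison inside 1 cluster. Some had few induced cells, such as 2 outer root sheath clusters, of 105 control and 17 induced and of 84 and 21 cells. Their Sox4 log2 ratios were -0.77 and 0.14, and their Sox9 ratios -0.34 and 0.14. The clusters with at least 50 cells of each library are given next. The first was named upper follicle and led by Pinlyp, Krt75 and Klk10 (75 control and 117 induced cells). Pinlyp and Krt75 are in the fixed marker list of the companion layer, another part of the follicle, so that name is not certain. This first cluster had 918 and 777 CPM of Sox9 and 689 and 452 CPM of Sox4. Sox21 was at 19.6 CPM (75 UMIs) and 42.4 CPM (142 UMIs) there, a log2 ratio of 1.11 (0.70 to 1.53), and Sox13 at 22.2 and 36.1 CPM. Its control cells were deeper, with a median of 43143 UMIs compared with 14963, and Gm13648 was at 43.8 CPM in its induced cells. The second, led by Wfdc18, Krt6a and Cst6 (97 and 56 cells), had near-equal depths of 11868 and 11927 UMIs. Wfdc18 and Krt6a are in the companion layer list, and Krt6a and Cst6 in the upper follicle list. Sox9 was at 900.0 and 975 CPM there, a log2 ratio of 0.12 (-0.01 to 0.24). Sox4 was at 190 and 280 CPM, a log2 ratio of 0.56 (0.31 to 0.82), opposite in sign to the first cluster. Sox13 was at 11.6 CPM (15 UMIs) and 39.0 CPM (37 UMIs), a log2 ratio of 1.75 (0.85 to 2.72). No Sox gene passed the fold in either: 0 of 4 in the first, compared with 2.87% of 6735 genes higher and 2.91% lower, and 0 of 2 in the second, compared with 3.44% of 3196 higher and 3.88% lower.

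The last of these clusters was forming hair, led by the hair keratins Krt33a and Krt35 (67 control and 51 induced cells). Sox21 (ENSMUSG00000061517, chr14:118233232-118237030, minus strand), needed for the hair shaft cuticle, was at 213 CPM in both libraries (192 to 235 and 186 to 244), a log2 ratio of 0.00 (-0.24 to 0.25). In contrast, Sox4, Sox9, Sox13 and Sox5 were lower there in the induced library. Sox4 was at 739 and 465 CPM, a log2 ratio of -0.67 (-0.82 to -0.52). Sox9 was at 52.0 and 21.7 CPM, a log2 ratio of -1.26 (-2.00 to -0.58), Sox13 at 35.4 and 8.88 CPM, -1.99 (-3.18 to -0.98), and Sox5 at 32.7 and 13.8 CPM, -1.24 (-2.20 to -0.39). Sox9 was the 1 of 3 counted Sox genes that passed the fold, compared with 5.7% of 4123 genes lower and 3.83% higher. In this cluster outer root sheath markers summed to 900 and 362 CPM, and the sum of inner root sheath and hair shaft markers in its class was 2564 and 15600 CPM. That class also holds a smaller inner root sheath cluster of 8 and 20 cells. Over that whole class Sox9 was at 51.1 and 82.2 CPM, a log2 ratio of 0.69 (0.30 to 1.08), opposite in sign to the hair cluster. With the stricter filter and the other resolution the class ratio was -1.28 and -1.26, the same sign as the hair cluster. The part of the marker differences in the Sox9, Sox13 and Sox5 values was not tested. Of the cells with Sox21, those that also had Sox4 were 50 of 51 in the control library and 41 of 41 in the induced one, without thinning, compared with 62 of all 67 and 48 of all 51.

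**Figure D3:**
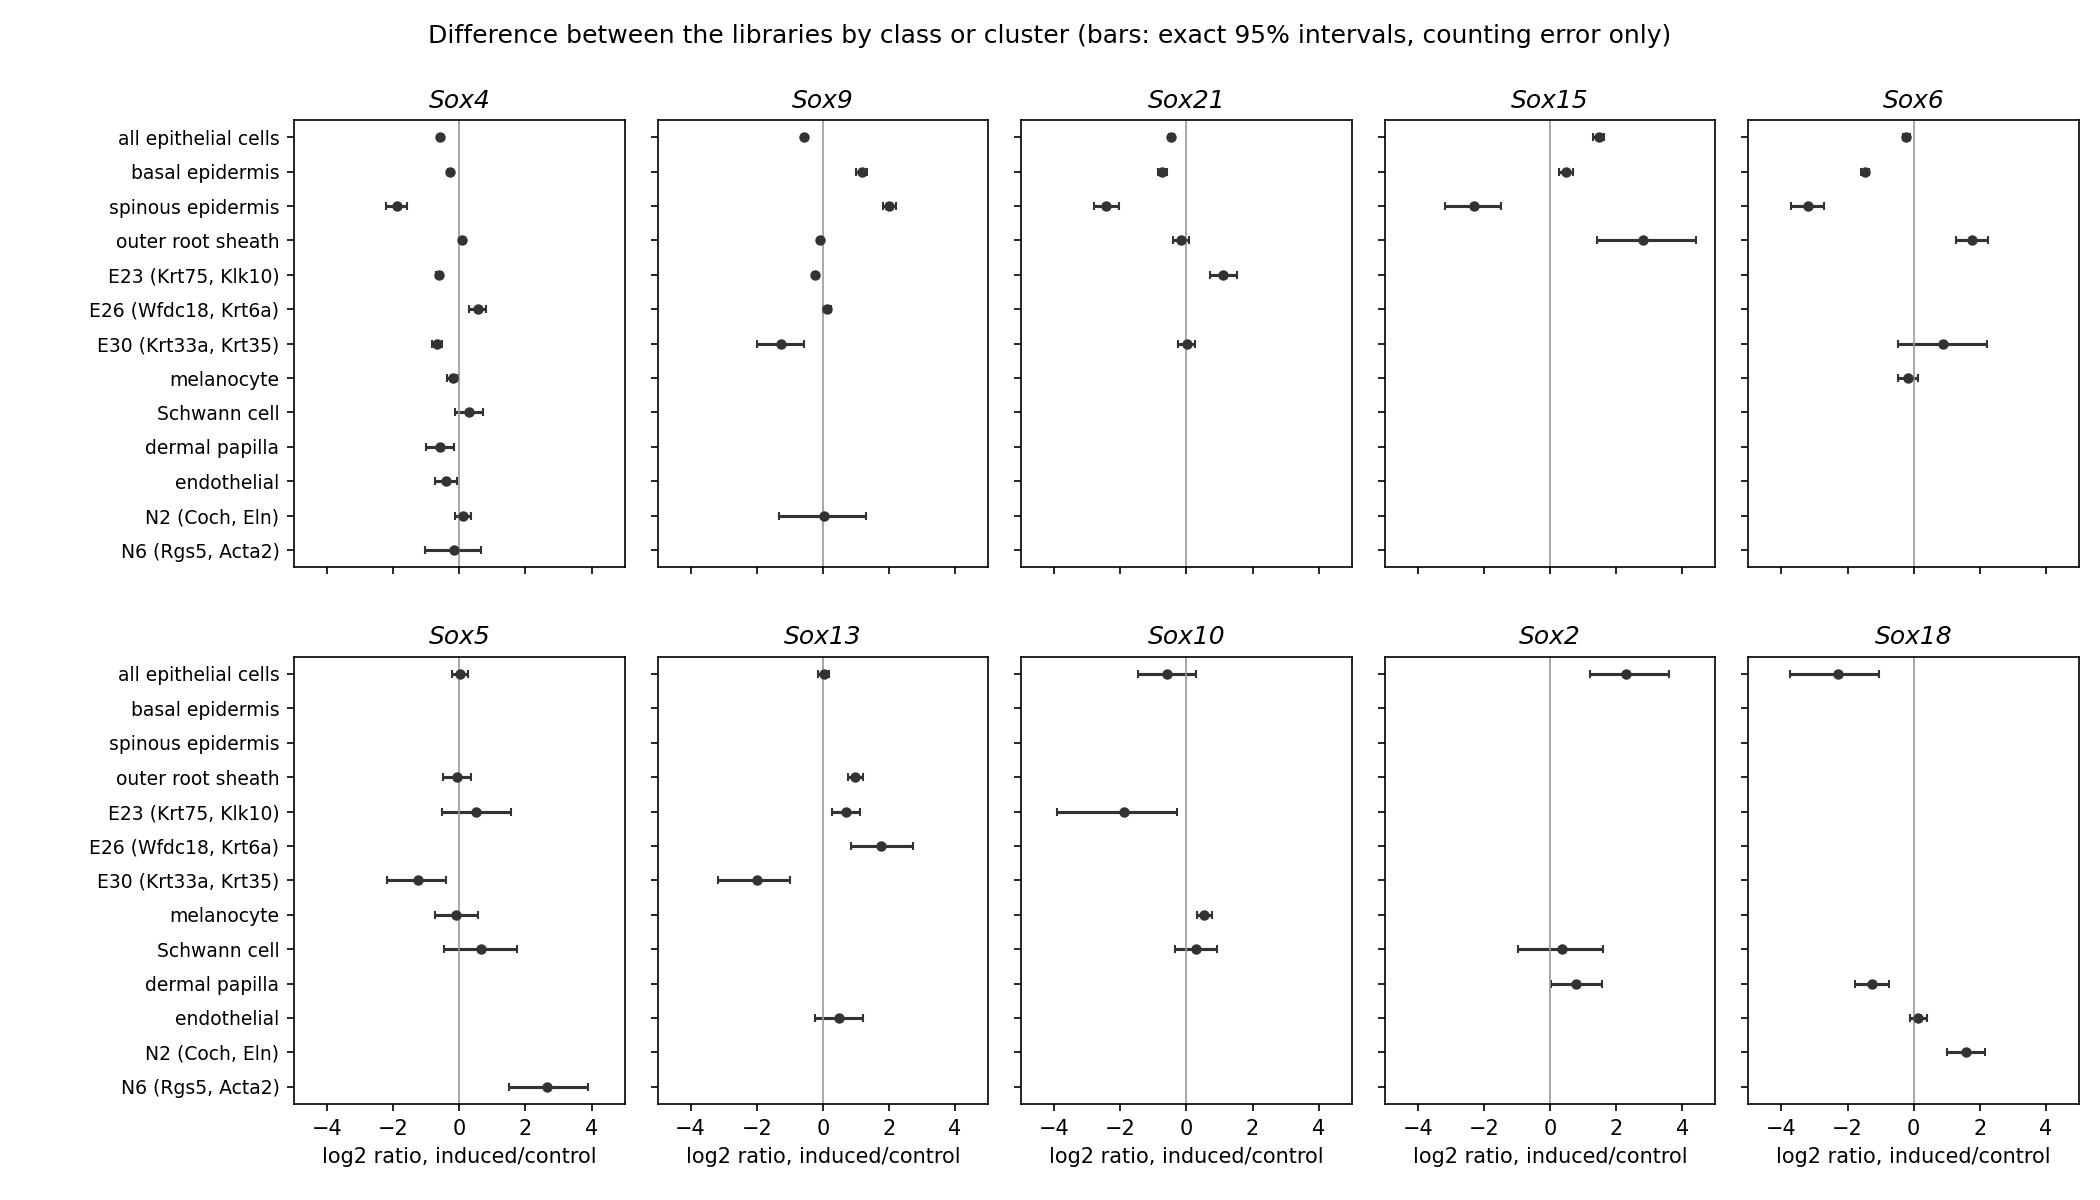
Log2 ratio of induced over control CPM (x axis) for each Sox gene in 13 classes or clusters (y axis), with exact 95% intervals, shown where there were at least 20 UMIs in all and 3 in each library. Sox6 lies at -1.47 in basal epidermis and at -0.18 in melanocytes, and Sox9 lies near 0 in the outer root sheath but at 1.17 and 2.01 in basal and spinous epidermis.

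In the interfollicular epidermis Sox6 and Sox21 were lower and Sox9 and Sox15 higher in the induced basal cells. Sox6 in basal epidermis, the layer of dividing keratinocytes, stood at 106 CPM in 543 control cells (99.7 to 112, 1141 UMIs) and at 38.1 CPM in 1413 induced cells (36.1 to 40.2, 1302 UMIs), a log2 ratio of -1.47 (-1.59 to -1.36). Both control clusters (96.4 and 109 CPM) lay above all 5 induced clusters (32.6 to 43.1 CPM). Each cluster came almost wholly from 1 library, so they are no replicates. The share of all genes whose clusters separate in this way was not computed. At 2000 UMIs 19.1% (15.9 to 22.7) of control and 6.23% (5.01 to 7.63) of induced basal cells had a Sox6 UMI, and unthinned 77.5% and 51.2%. None of 333 control and 72 induced fibroblasts did at 2000 UMIs. When genes were centred within each library before clustering, the log2 ratio was -0.89, under 2-fold.

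Of 5 Sox genes counted in basal epidermis, Sox6 was past the fold in the lower direction, compared with 2.57% of 10805 genes, and Sox9 in the higher, compared with 2.34%. Sox9 stood at 32.2 CPM (28.9 to 35.7) and 72.5 CPM (69.6 to 75.4), a log2 ratio of 1.17 (1.01 to 1.34). Its clusters overlapped, at 31.1 to 35.2 CPM in the control and 33.9 to 116 CPM in the induced library. The Sox9 ratio was 0.15 with doublets kept, 0.09 with genes centred within each library, 0.99 with the stricter filter and 0.58 with cells assigned one by one, and it did not pass the fold in any of these. The 9 basal markers summed to 47510 and 24722 CPM, and upper follicle markers in these cells to 711 and 1939 CPM, whereas outer root sheath markers were at 781 and 412 CPM. Their part in the Sox6 and Sox9 values was not tested.

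Sox15 (ENSMUSG00000041287, chr11:69655314-69656727, plus strand), the sole SOXG gene, was mainly a basal gene in these cells, at 21.6 CPM (18.9 to 24.6) in the control and 30.1 CPM (28.3 to 32.0) in the induced library, with a log2 ratio of 0.48 (0.27 to 0.69), which was 0.03 with cells assigned one by one. The next class was spinous epidermis in the control (7.81 CPM) and stood at 1.60 CPM in the induced library. Clusters overlapped, at 13.2 to 24.1 CPM and 22.4 to 37.4 CPM. Sox15 overlaps Mpdu1 on the other strand. Sox21 in basal epidermis stood at 74.3 CPM (69.3 to 79.7) and 44.9 CPM (42.7 to 47.2), a log2 ratio of -0.73 (-0.85 to -0.60). With genes centred within each library the ratio was -1.35 and with doublets kept -1.08, and Sox21 passed the fold in both. The control clusters of Sox21 (72.7 and 78.4 CPM) lay above the induced ones (29.2 to 69.2 CPM), again without a share over all genes. Sox4 was at 234 and 191 CPM, and that ratio changed sign under other settings.

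In spinous epidermis each library gave 1 main cluster. The share of all genes past the fold was not computed for this class, so its ratios have no background. Sox6 stood at 35.6 and 3.85 CPM, a log2 ratio of -3.21 (-3.72 to -2.73), Sox21 at 38.3 and 7.14 CPM, -2.42 (-2.81 to -2.05), and Sox9 at 36.9 and 149 CPM, 2.01 (1.82 to 2.21). Over the other ways of choosing cells the Sox6 ratio was between -3.59 and -2.31, the Sox21 ratio between -2.28 and -0.65 and the Sox9 ratio between 1.02 and 1.99. These clusters were at different steps: basal markers summed to 33097 CPM in the control and 2808 CPM in the induced one, and spinous markers to 46240 and 63390 CPM. Upper follicle markers, which include Krt17 and Krt6a, summed to 399 and 4045 CPM. The part of these in the spinous values was not tested, and depth differed too, with medians of 25753 and 46861.5 UMIs. In the outer root sheath Sox6 was low and higher in the induced library, at 3.11 CPM (64 UMIs) and 10.5 CPM (98 UMIs), a log2 ratio of 1.76 (1.29 to 2.24), which lay between 1.07 and 2.40 over the other ways. With 5 CPM added it was 0.94, under 2-fold.

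**Figure D4:**
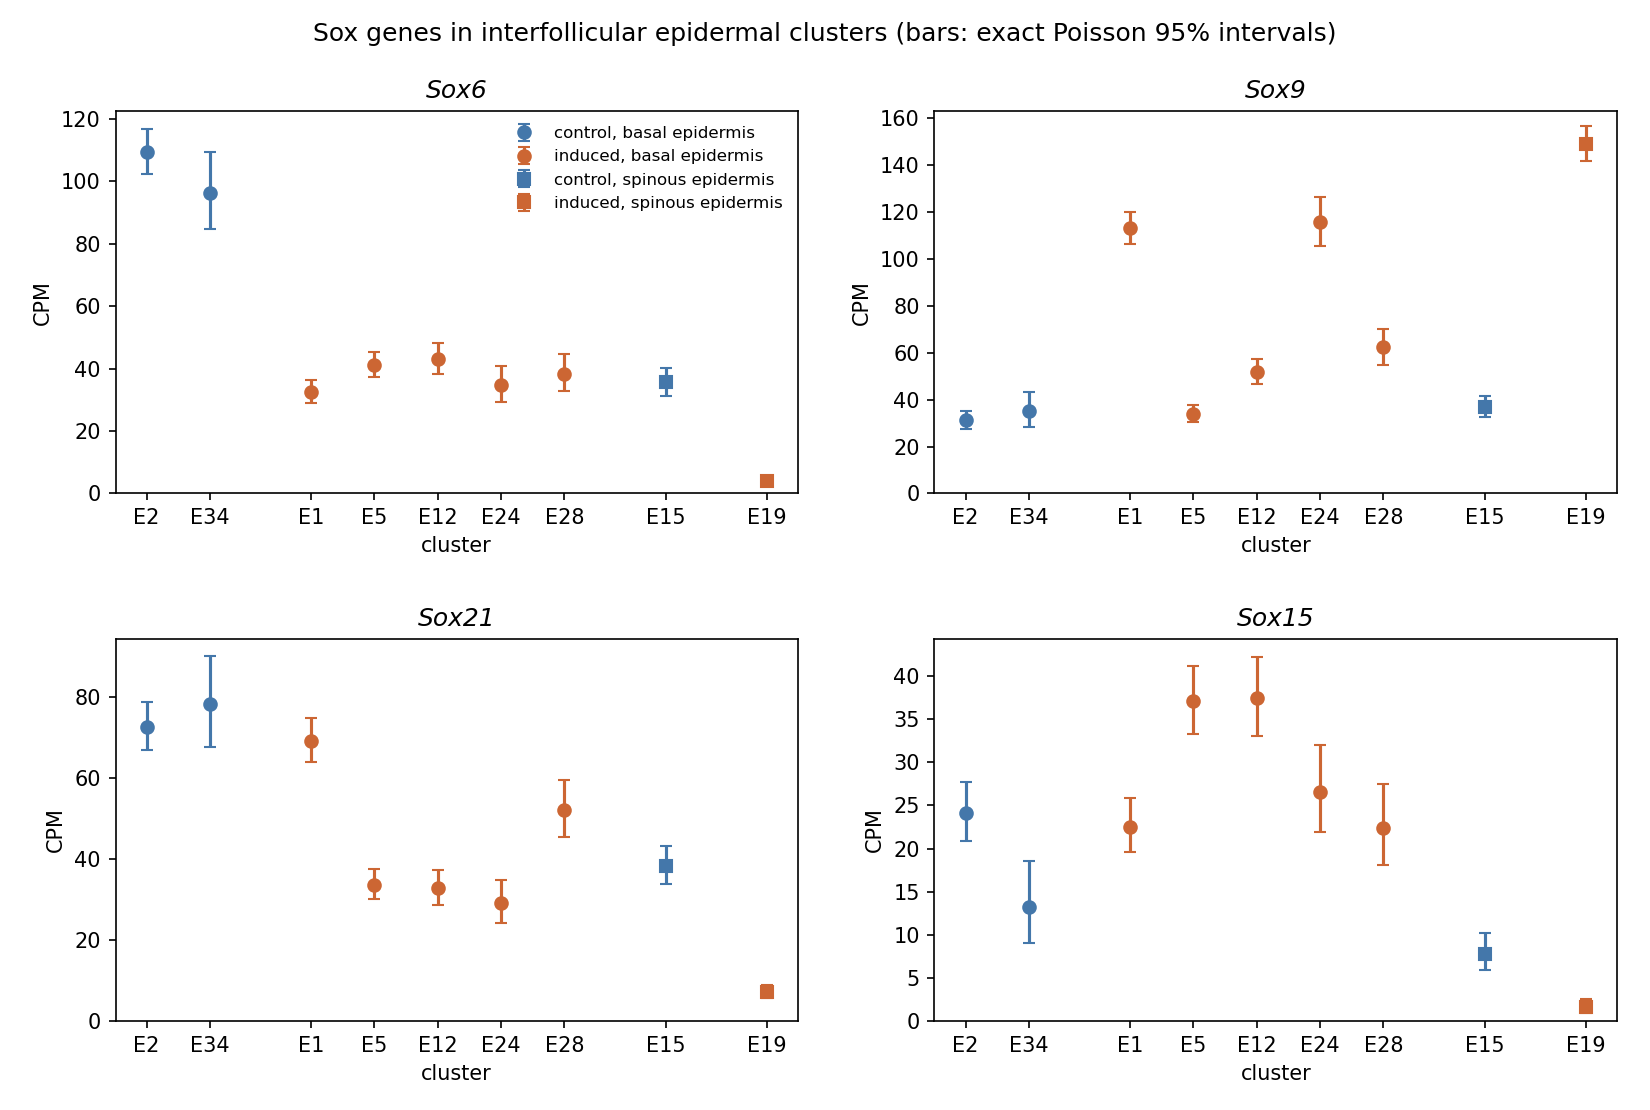
Level in CPM (linear axis from 0) of Sox6, Sox9, Sox21 and Sox15 in each basal (circles) and spinous (squares) cluster with at least 10 cells of the control (blue) or induced (orange) library, with exact Poisson 95% intervals. The 2 control basal clusters lie above the 5 induced ones for Sox6 (96.4 to 109 against 32.6 to 43.1 CPM), while the Sox9 and Sox15 clusters of the libraries overlap.

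Over all 3972 control and 4106 induced epithelial cells, 7 of the 10 genes had enough UMIs, and 0 passed the fold in either direction, compared with 1.84% of 13391 genes higher and 2.84% lower. Their median log2 ratio with 5 CPM added was -0.18, compared with -0.05 over all genes counted. Sox4 stood at 347 and 231 CPM (log2 ratio -0.59, interval -0.61 to -0.56) and Sox9 at 336 and 226 CPM (-0.57, -0.60 to -0.55). Sox21 was at 51.6 and 37.6 CPM (-0.46, -0.52 to -0.39) and Sox6 at 20.8 and 17.8 CPM (-0.23, -0.32 to -0.13). Sox5 (3.39 and 3.43 CPM) and Sox13 (log2 ratio 0.03) had intervals that spanned 0. By class, the Sox13 ratio was 0.98 (0.75 to 1.21) in the outer root sheath, and 0.06 there with the other resolution. It was 1.05 (0.69 to 1.42) in upper follicle and isthmus and -2.25 (-3.27 to -1.35) in inner root sheath and hair shaft. Sox15 was at 4.69 and 13.0 CPM, a log2 ratio of 1.47 (1.30 to 1.64) that became 0.89 with 5 CPM added. The make-up of the epithelium differed: basal cells, where Sox15 was read most, numbered 543 and 1413, outer root sheath cells 1378 and 570, and sebaceous progenitors 777 and 22. The part of the make-up in the epithelial values was not tested. Within classes the Sox4 ratio was 0.09 in the outer root sheath, -0.29 in basal epidermis, -0.28 in upper follicle and isthmus, -0.89 in inner root sheath and hair shaft and -1.90 in spinous epidermis. Except in upper follicle and isthmus, each of these changed sign under at least 1 other way of choosing cells. Among the genes with a microRNA-200b seed match, Sox5 did not differ beyond counting error over epithelial cells, though it had 2 and 67 UMIs in basal epidermis (0.185 and 1.96 CPM). Sox6 was lower in basal and spinous epidermis and higher in the outer root sheath, and Sox2 had few UMIs in epithelium (8 and 50 UMIs).

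Other lists are read for the epithelial cells against the same background, 1.84% of genes higher and 2.84% lower with a median log2 ratio of -0.05. Of 10 other Sox family genes 4 could be counted and 0 passed the fold. Sox7 was at 10.5 and 2.93 CPM, Sox8 at 1.39 and 0.265 CPM, Sox11 at 1.35 and 3.88 CPM and Sox12 at 19.8 and 16.9 CPM, and Sox3 was read mainly in Schwann cells (38.8 and 24.9 CPM). Of 11 SOX partners 8 could be counted and 0 passed. Ctnnb1, the beta-catenin gene, was at 359 and 354 CPM, Pou3f1 at 181 and 155 CPM, and Pou2f3 at 47.1 and 61.3 CPM. Ctbp1, Ctbp2, Mef2c, Rbpj and Tle3 had log2 ratios between -0.37 and 0.24 with 5 CPM added. Of 9 genes described as SOX10 targets 6 were counted in epithelial cells and 0 passed, and of 4 described as SOX18 targets 0 could be counted. Of 11 genes described as SOX9 targets or dependent on SOX9, 6 could be counted, 0 were past the fold higher and 2 lower, with a median log2 ratio of -0.84, compared with -0.05 over all genes counted. The 2 were Nfatc1, a factor of quiescent follicle stem cells, at 61.0 and 26.9 CPM, and Nfib, a nuclear factor of the same cells, at 884 and 363 CPM. In the outer root sheath Nfatc1 stood at 125 and 62.0 CPM, Nfib at 1661 and 841 CPM, and Barx2, a homeobox gene, at 532 and 260 CPM. Lhx2, a stem cell factor, was level at 484 and 497 CPM, and Inhbb, an activin subunit, was higher at 39.9 and 94.6 CPM. Nfatc1 and Lhx2 are also markers of the outer root sheath list. Outer root sheath cells numbered 1378 and 570, and the part of this in the epithelial values of these genes was not tested. The share of all genes past the fold was not computed for the outer root sheath.

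Across 41 clusters of at least 50 cells, the genes whose levels tracked each Sox gene best were found by Pearson's r of log2(CPM + 5), as a description over clusters that share libraries and depth. The Schwann cell cluster, with 30 and 16 cells, was under that size, so a class high in Sox10, Sox5 and Sox2 did not enter. Without it Sox10 was high in the melanocyte cluster only. Sox18 was read mainly in the dermal papilla, endothelium and the dermal cluster led by Coch. The r values of both rest on these few clusters. Sox10 tracked Slc45a2 (0.99), Cpne4 (0.99) and Mc1r (0.98), pigment genes among them, and Sox18 tracked Prom1 (0.98), Col13a1 (0.96) and Hey1 (0.94). Sox15 tracked Slc2a5 (0.94), Satb1 (0.87) and Wnt3 (0.86), and Sox9 tracked Vdr (0.92), Barx2 (0.87) and Kank1 (0.86). For Sox4 they were Zfp326 (0.91), Tfdp2 (0.90) and 1110038B12Rik (0.89), and for Sox2 Spock1 (0.89), Rspo2 (0.86) and Galnt9 (0.85). For Sox6 they were Rab27a (0.80), Aldh9a1 (0.75) and Agrp (0.74), for Sox21 Pou3f1 (0.79), Mta2 (0.77) and Plek2 (0.75), for Sox13 Dgkz (0.79), Zfp664 (0.75) and Arl15 (0.73), and for Sox5 Cystm1 (0.69), Cfap54 (0.68) and Exosc2 (0.66). Among the 10 themselves the highest r was 0.73, between Sox6 and Sox15, followed by 0.59 between Sox5 and Sox13, and the lowest was -0.43, between Sox9 and Sox18. In basal epidermis, unthinned, Sox6 was read in 145 of 177 control and 381 of 650 induced cells that had Sox15, compared with 421 of all 543 and 724 of all 1413.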

How the data were processed

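The authors deposited raw UMI counts for every gene in each barcode. Cell Ranger 6.0.0 and mm10 were used per the submitters' processing notes, from 10x 3′ version 3.1 libraries per the labels' protocols. No aligner setting is given in the sources used here. No barcode had under 500 UMIs, and the control and induced libraries held 100409201 and 119705137 UMIs. Here barcodes with at least 1000 UMIs, 500 genes and under 15% mitochondrial UMIs were kept (5178 and 5258). The 7% with the highest Scrublet scores were removed as doublets (362 and 368), since the automatic threshold marked only 3 and 2.

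Cells of both libraries were clustered together with scanpy 1.11.5 and leidenalg 0.10.2 (2000 variable genes, 30 principal components, Leiden resolution 1, epithelial cells again at 2) without Sox, ribosomal, mitochondrial and cell cycle genes. A cluster took a class name where 3 or more of its fixed markers passed both a detection minimum (25% of cells) and a 1.5-fold excess over the other cells. These thresholds were set after the data were seen, and the members and lists were chosen with earlier results of these data known. The rule for named genes takes the 10 members, for each the 3 genes most alike in pattern (with at least 50 CPM in some cluster), and genes of the lists with at least 20 CPM in some class. Of the last, the text gives those its counts and classes turn on, and some are not reported here.

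UMIs were summed per class and library as CPM with exact Poisson 95% intervals. Ratios have exact conditional binomial intervals and shares exact Clopper-Pearson ones. Cells were thinned to 2000 UMIs for shares, leaving out 54 and 352 shallower ones. UTRs are the longest per gene in GENCODE vM21 on GRCm38, which held 32158 of 32285 gene identifiers. The steps were tested on simulated data. Python 3.11.15 was used. The alternatives were kept doublets, a stricter cell filter, another resolution, library-centred genes, cells assigned one by one, other added CPM, a median-gene scale, no count minimum, other thinning and other match lengths.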

Additional observations from a re-analysis of the deposited data

Results flagged for a closer look

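By the ratio of CPM with nothing added, several Sox genes were at least 2-fold higher in the induced library in 1 class or cluster and at least 2-fold lower in another, and none of these differences between classes was tested, since each rests on 1 library per group. Sox6 had a log2 ratio of 1.76 in the outer root sheath, -1.47 in basal epidermis and -3.21 in spinous epidermis. Sox9 had 1.17 in basal and 2.01 in spinous epidermis, and -1.26 in the hair shaft cluster E30 led by Krt33a and Krt35. The whole class of inner root sheath and hair shaft had 0.69, which became -1.28 with the stricter filter and -1.26 with the other resolution. Sox18 had 1.57 in the dermal cluster N2 led by Coch and Eln, and -1.25 in the dermal papilla. Sox21 had 1.11 in E23, the cluster led by Pinlyp and Krt75, and -2.42 in spinous epidermis. It had -3.54 (-8.85 to -1.06) in sebaceous progenitors. There the induced library held only 22 cells and 1 Sox21 UMI, against 467 in the control. In E21, the sebaceous progenitor cluster with the most induced cells, Sox21 was at -1.46 (-6.79 to 1.11), which spans 0. With 5 CPM added, Sox6 in the outer root sheath and Sox21 in E23 were both at 0.94, under 2-fold.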

How the results depend on the processing

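The class with the highest level was the same for 10 of 10 genes under kept doublets, the stricter filter, the other resolution and library-centred genes, and for 8 with cells assigned one by one, where Sox4 was highest in the outer root sheath and Sox18 in endothelium. Calls were counted over 5 classes: basal epidermis, melanocytes, dermal papilla, endothelium and fibroblasts. Other classes are not in this count. Spinous epidermis also held Sox genes past the fold, but no share over all genes was computed for it. Over the 5 classes, the 3 Sox genes past the fold became 1 under the stricter cell filter and 1 with cells assigned one by one. That was Sox6 in basal epidermis both times, with fewer cells counted in the second. Kept doublets also gave 3, Sox6 and Sox21 in basal epidermis and Sox4 in endothelium. Library-centred genes gave 2, Sox21 in basal epidermis and Sox18 in the dermal papilla, without Sox6. Over all epithelial cells, 0 became 1 (Sox15) with 1 CPM added in place of 5. Seed matches fell from 3 genes to 1 (Sox5) with the 8-base match, which 3.31% of genes held, and were 4 with the 6-base match, which added Sox9 and which 33.4% of genes held. Ratios whose main interval lay off 0 changed sign as follows, and the cause was not tested. Sox4 became 0.016 and 0.12 in basal epidermis (stricter filter, cells one by one), 0.034 in spinous epidermis (stricter filter), -0.17 in the outer root sheath (other resolution) and 0.20 in inner root sheath and hair shaft (cells one by one). Sox15 in spinous epidermis became 0.14 (stricter filter). Sox9 in upper follicle and isthmus became -0.23, -0.33 and -0.36 (stricter filter, library-centred genes, cells one by one), and in inner root sheath and hair shaft -1.28 and -1.26 (stricter filter, other resolution). For 8 more values the sign changed where the main interval spans 0: Sox21 in the outer root sheath (0.58 with the stricter filter and 0.22 with library-centred genes, from -0.17), in upper follicle and isthmus and in inner root sheath and hair shaft, and Sox13 over epithelial cells. Of 200 alternative values for 44 log2 ratios, leaving out those with added CPM, 119 lay within the counting interval and 19 changed sign in all. Sox2 and Sox5, with 161 and 764 UMIs, had the fewest counts of the 10, and the dermal papilla and Schwann classes each had under 100 cells a library. No paired analysis was possible because each group had 1 library.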
